A study of Mus musculus with 36 samples.

Results

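The aryl hydrocarbon receptor (AhR) pathway was followed here through 6 genes, Cyp1a1, Cyp1a2, Cyp1b1, Ahr, Ahrr and Tiparp. The members were all array probes whose gene symbol in the platform's probe annotation is one of these names. The 6 members are among 19053 gene symbols on the array, counting probes with 1 symbol. They gave 7 of the 45281 probes with detection p-values, since Cyp1a2 has 2 probes and the other genes have 1 each. The data come from Illumina MouseWG-6 v2.0 beadchips, on which the brightness of a probe measures the transcript it binds. Each of the 36 arrays held total RNA from the liver of 1 male mouse, with 6 mice for each of 6 diets. The question put to the members was whether any berry diet engages the AhR.

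The lingonberry, blackcurrant, bilberry and açai diets each contained 20% by weight of the freeze-dried berry in a high-fat diet. The high-fat diet drew 45% of its energy from fat and carried no berry, and the low-fat diet drew 10%. All mice were fed for 13 weeks and were 20 weeks old. The labels name no transgene or induced mutation. The sample labels call the strain C57BL/6J, whereas the series design names C57BL/6JBomTac. All the results concern whole liver tissue, in which fewer cells of a type and less RNA per cell cannot be told apart.

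The AhR is a transcription factor that waits in the cytosol, bound to chaperones, until it meets a ligand. Ligands include planar aromatic pollutants, tryptophan derivatives made by the body and its microbes, and plant compounds of the diet. With its partner ARNT the receptor then binds DNA sites with the core GCGTG and switches on the Cyp1 enzymes, together with its own inhibitors AHRR and TIPARP. In mouse liver Cyp1a1 is known as the most sensitive sign of this switch, being almost silent without an agonist. Cyp1a2 is made by hepatocytes at all times, mostly those near the central vein, and rises further with agonists. Cyp1b1 is found mainly in cells other than hepatocytes.

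The core of the AhR site was looked for in a short window around the transcription starts of the members. RefSeq (GRCm38.p6) gave a window of 300 bases, from 250 bases before to 50 after the start, for 5 of the 6 members. The windows of the 3 Cyp1 genes and of Ahrr are printed 5′ to 3′ on the strand of the gene, with each GCGTG or its reverse complement CACGC in capitals. They lie at chr9:57697363-57697662 (plus strand) for Cyp1a1, chr9:57683606-57683905 (minus) for Cyp1a2, chr17:79715012-79715311 (minus) for Cyp1b1 and chr13:74292282-74292581 (minus) for Ahrr.
Cyp1a1: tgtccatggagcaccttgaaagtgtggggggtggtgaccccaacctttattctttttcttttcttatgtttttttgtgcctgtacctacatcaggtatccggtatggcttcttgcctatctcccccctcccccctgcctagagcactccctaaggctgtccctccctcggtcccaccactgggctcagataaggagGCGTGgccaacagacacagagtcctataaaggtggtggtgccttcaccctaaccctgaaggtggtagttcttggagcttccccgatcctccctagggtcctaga
Cyp1a2: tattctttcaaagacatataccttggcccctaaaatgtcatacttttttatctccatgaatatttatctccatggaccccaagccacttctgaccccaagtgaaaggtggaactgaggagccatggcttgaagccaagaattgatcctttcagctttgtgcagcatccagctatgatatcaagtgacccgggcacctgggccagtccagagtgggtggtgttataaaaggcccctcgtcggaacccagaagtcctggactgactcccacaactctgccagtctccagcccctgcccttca
Cyp1b1: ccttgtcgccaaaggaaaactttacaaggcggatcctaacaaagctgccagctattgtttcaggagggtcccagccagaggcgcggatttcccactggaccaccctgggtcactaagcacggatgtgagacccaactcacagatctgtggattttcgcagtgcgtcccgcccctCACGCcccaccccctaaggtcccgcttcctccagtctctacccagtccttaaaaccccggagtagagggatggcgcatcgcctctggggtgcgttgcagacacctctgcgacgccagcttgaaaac
Ahrr: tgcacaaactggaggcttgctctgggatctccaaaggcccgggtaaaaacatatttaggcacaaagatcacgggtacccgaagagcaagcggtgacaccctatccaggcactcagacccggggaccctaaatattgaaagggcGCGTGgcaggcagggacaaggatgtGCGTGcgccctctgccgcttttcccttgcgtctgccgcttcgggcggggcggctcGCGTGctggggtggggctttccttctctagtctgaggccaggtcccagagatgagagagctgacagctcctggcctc
The Cyp1a1 window held 1 core, the Cyp1b1 window 1 and the Ahrr window 3, and 1 of the Ahrr cores was part of the longer form TNGCGTG. The Tiparp window (chr3:65528197-65528496, plus) held 1 core. The Cyp1a2 window had no match to these letters, the only one of the 5 without one. Cores outside the windows were not looked for, so this does not show that Cyp1a2 lacks an AhR site. Among all 32817 windows of this length, 32.4% held the core on either strand and 5.06% held the longer form, so a match is common and describes only these letters.

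A probe counted as detected on an array when its deposited detection p-value lay below 0.05. Between 14240 and 15670 probes were detected per array, and the median raw intensity of an array ran from 81.2 to 103. Levels are normalized log2 values, and 17907 probes detected on at least 6 arrays entered the tests. The mean level of 10 hepatocyte markers ran from 11.3 to 11.9 over the arrays, and 9 of the 10 were detected on all 36 arrays, while Fgb was detected on 24. Transcripts of pancreatic acinar cells stood out on 6 arrays, where the mean level of 15 of 18 markers was 7.57 to 9.78. These were lingonberry replicate 2, blackcurrant replicate 3, bilberry replicate 2, açai replicates 4 and 6 and low-fat replicate 6, whereas the other 30 arrays stood at 5.13 to 5.78. Since the 6 diets always took the same 6 places on a chip, place and diet cannot be told apart.

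Of the 6 members, Cyp1a2 was detected in all 36 livers by both probes, Cyp1b1 in 28, Ahrr in 9, Ahr and Tiparp in 1 each and Cyp1a1 in none. The probes of Cyp1a2, Cyp1b1 and Ahrr were thus tested, 4 in all, and those of Cyp1a1, Ahr and Tiparp were not. With 6 livers a diet, precision is limited by that number.

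Cyp1a2, the enzyme that activates aromatic amines and clears caffeine, gave the strongest readout of the pathway in these livers. With lingonberry its first probe, ILMN_2739847, ran from 9.94 through a median of 10.44 to 10.95. With blackcurrant it ran from 9.90 through 10.40 to 10.70. With bilberry it ran from 9.74 through 10.45 to 10.55. The ranges of these 3 berry diets overlapped, with the highest liver on lingonberry and the lowest on bilberry. With açai the same probe lay between 9.42 and 9.92, with a median of 9.86. On high fat alone it ran from 9.67 through 10.02 to 10.81, and on low fat from 9.61 through 10.45 to 10.83. The highest açai liver thus stood below the median of each other diet.

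The second Cyp1a2 probe, ILMN_2795106, is set against the same transcript and gave the same order of diets. It ran from 9.94 through 10.60 to 11.23 with lingonberry, from 10.12 through 10.49 to 10.67 with blackcurrant and from 9.63 through 10.39 to 10.71 with bilberry. With açai it ran from 9.53 through 9.83 to 10.02. On high fat alone it ran from 9.88 through 10.11 to 10.91, and on low fat from 9.77 through 10.55 to 10.98. Mean levels, from the highest to the lowest, stood in the order lingonberry, low fat, blackcurrant, bilberry, high fat and açai with both probes. No 2 neighbours in that order were called different at the test threshold. The mean of the first probe was 10.44 ± 0.39 with lingonberry, 9.75 ± 0.21 with açai and 10.09 ± 0.39 on high fat (SD, n = 6 each). The 2 probes correlated with r = 0.87 over the 36 arrays, and with r = 0.80 after the mean of each diet was removed.

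**Figure D1:**
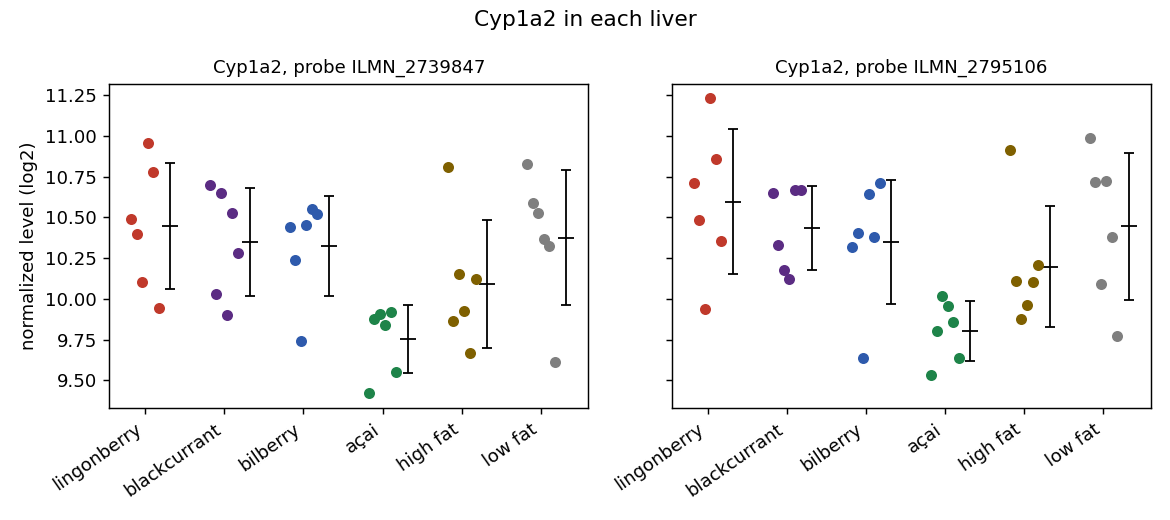
Normalized log2 level of Cyp1a2 in each liver by diet, for its 2 probes (points, 6 mice per diet; bars, mean and SD). Açai livers lie between 9.42 and 10.02, and with either probe the highest of them lies below the median of each other diet.

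Each berry diet was compared with the high-fat diet to ask what the berry changed at the same fat content, with limma fitted on all arrays and p-values adjusted over all 17907 probes. No member probe was called at an adjusted p below 0.05 with any berry. The share of all tested probes called was 2.25% for lingonberry, 0.134% for blackcurrant, 0.38% for bilberry and 0.0447% for açai. At an unadjusted p below 0.05, 1 of the 4 member probes passed with lingonberry (Cyp1a2), 1 with bilberry (Cyp1b1) and none with blackcurrant or açai. The share of all tested probes that passed in this way was 14.1% with lingonberry, 8.67% with blackcurrant, 7.83% with bilberry and 6.06% with açai.

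The intervals of the Cyp1a2 differences give the range of effects these arrays allow. With lingonberry the level was higher than on high fat by 0.35 ± 0.19 with the first probe (log2, SE, adjusted p = 0.406), and by 0.40 ± 0.20 with the second (adjusted p = 0.350). Their 95% intervals ended at 1.67-fold and 1.74-fold above high fat. Blackcurrant gave 0.26 and 0.24, with intervals ending at 1.56-fold for both probes, and bilberry gave 0.23 and 0.15, ending at 1.53-fold and 1.47-fold. These intervals included 0, except that of the second probe with lingonberry, which began just above it. With açai Cyp1a2 differed from high fat by -0.34 ± 0.19 (adjusted p = 0.924) and -0.39 ± 0.20 (adjusted p = 0.835). It was lower in açai livers on 4 and 5 of the 6 chips with the 2 probes. The exact permutation test of the açai and high-fat livers gave unadjusted p = 0.0693 and 0.0130. High-fat replicate 1 stood at 10.81 and 10.91, while the other 5 high-fat livers reached at most 10.15 and 10.21.

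The mean of the 4 berry diets lay 0.13 ± 0.15 and 0.10 ± 0.16 above high fat for Cyp1a2 (limma, adjusted p = 0.908 and 0.938, with 0.0838% of all probes called). The upper ends of the 95% intervals were 1.35-fold and 1.33-fold. The high-fat diet without berries did not differ from low fat in any member probe at the threshold, while 3.31% of all probes were called. Cyp1a2 was lower on high fat than on low fat by 0.28 ± 0.19 and 0.25 ± 0.20 with adjusted p = 0.509 and 0.602, and on 5 of 6 chips with both probes. A test for any difference among the 6 diets called no member probe, against 8.03% of all probes. There Cyp1a2 had adjusted p = 0.0763 and 0.0599, and with chip as a block 0.0536 and 0.0243.

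**Figure D2:**
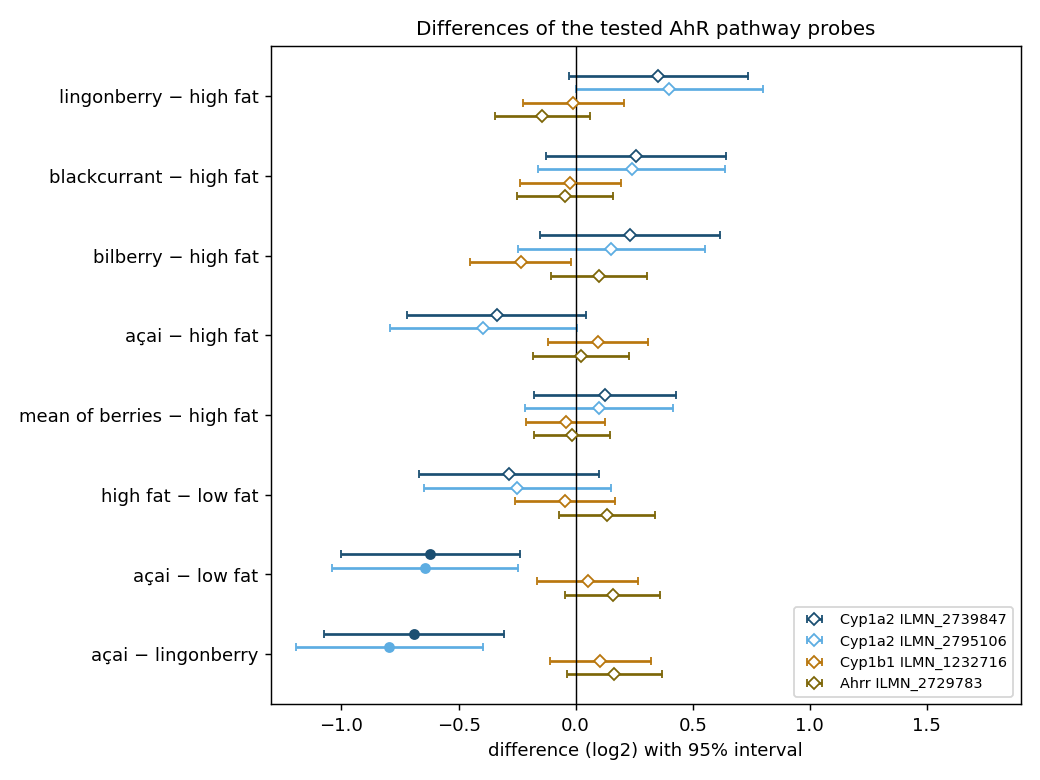
Log2 differences of the 4 tested member probes in 8 comparisons, with 95% intervals; filled circles mark an adjusted p below 0.05 and open diamonds the others. Both Cyp1a2 probes are filled for açai against low fat and against lingonberry; Ahrr was detected in no low-fat liver, so its differences from low fat rest on values without a detected level there.

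Açai was the diet in which Cyp1a2 was called lower than in others. Against lingonberry the first probe differed by -0.69 ± 0.19 (limma, adjusted p = 0.0311) and the second by -0.79 ± 0.20 (adjusted p = 0.0143), while 3.35% of all probes were called. All açai livers lay below all lingonberry livers with the first probe, and on 6 of 6 chips. With the second they overlapped in lingonberry replicate 3, and açai was lower on 5 of 6 chips. The exact permutation test gave p = 0.00217 and 0.00649, the first being the smallest that 6 against 6 livers allow. Without the 6 arrays that held pancreatic transcripts the differences were -0.67 and -0.81 with adjusted p = 0.0984 and 0.0519. Leaving out lingonberry replicate 4 ended both calls (-0.59 and -0.67, adjusted p = 0.0943 and 0.0544), and the first was also lost without açai replicate 1 or 6 or lingonberry replicate 1, 2 or 5 (adjusted p of 0.0531 to 0.0897).

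Against low fat Cyp1a2 was lower with açai by 0.62 ± 0.19 and 0.64 ± 0.20 (limma, adjusted p = 0.0396 and 0.0407), with 6.47% of all probes called. Açai was lower on 6 of 6 chips with both probes (differences within a chip of -1.40 to -0.061 and of -1.45 to -0.071), and the ranges of the diets overlapped through low-fat replicate 6. Without the 6 arrays with pancreatic transcripts the differences were -0.74 and -0.77 (adjusted p = 0.0345 and 0.0426). The call of the first probe was lost without açai replicate 1, 4 or 6 or low-fat replicate 1, 2, 3, 4 or 5 (adjusted p of 0.0517 to 0.116), and that of the second without açai replicate 1, 2, 5 or 6 or low-fat replicate 1, 2, 4 or 5 (0.0571 to 0.124). In those fits the difference stayed between -0.66 and -0.53. Scaling arrays to 1 median (adjusted p = 0.236 and 0.199), testing all probes (0.106 and 0.110) or adding the pancreatic marker mean as a covariate (0.0567 and 0.0601) also ended both calls. Açai and low fat differ in fat content as well as in the berry. High fat minus low fat was -0.28 and -0.25, and açai minus high fat was -0.34 and -0.39, none of them called.

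The other berries gave differences from açai of similar size that missed the threshold. Açai minus blackcurrant was -0.59 and -0.63 (limma, adjusted p = 0.107 and 0.0947, 1.76% of all probes called). With chip as a block the second probe passed, at adjusted p = 0.0442, and its açai and blackcurrant livers did not overlap. Açai minus bilberry was -0.57 and -0.55 (adjusted p = 0.177 and 0.234, 0.771% of all probes called). The other 12 Cyp1a2 differences, among the remaining berries and between them and low fat, lay between -0.095 and 0.25 with adjusted p of 0.809 or more, where the share of all probes called was 3.28% for lingonberry and 2.31% for blackcurrant against low fat, 0.983% for lingonberry against blackcurrant, 0.246% for lingonberry against bilberry and 0.212% for blackcurrant against bilberry.

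Markers of the zone around the central vein, the zone that holds Cyp1a2, are given beside these differences. All 10 pericentral markers were tested, among them Glul, Oat and Cyp2e1, and 0 of 10 were called between açai and low fat or between açai and lingonberry. Their median differences were -0.0021 and 0.013, against -0.014 and -0.015 over all probes, and single markers ranged from -0.70 to 0.67 in the comparison with lingonberry. The mean level of the 10 had medians of 8.41 to 8.45 in all 6 diets. Of 4 tested periportal markers, which mark the opposite zone, Hal was lower with açai than on low fat (-0.62, adjusted p = 0.00271) and than with lingonberry (-0.69, adjusted p = 0.00163). The mean level of the 4 had a median of 11.55 with açai, 11.56 on high fat, 11.57 with blackcurrant and 11.52 with bilberry. It was 11.85 with lingonberry and 11.94 on low fat, a diet that differs from açai in fat content as well as in the berry. Among the 10 hepatocyte markers Cps1, a urea cycle enzyme of the periportal zone, was lower with açai than on low fat (-1.25, adjusted p = 1.51e-05), and none was called between açai and lingonberry. Of 8 tested macrophage and leukocyte markers Ly6d was higher with açai than on low fat (1.36 ± 0.31, adjusted p = 0.00345) and than with lingonberry (1.34 ± 0.31, adjusted p = 0.00722). Ly6d was detected in 6 açai livers, 1 low-fat liver and 2 lingonberry livers, so the sizes rest largely on values below detection in the diets compared with açai. Of 9 endothelial markers Lyve1 was higher with açai than with lingonberry (0.87 ± 0.22, adjusted p = 0.0163), a call lost without açai replicate 1 or 2 (adjusted p of 0.0567 to 0.0582), and none was called between açai and low fat. Of 15 tested pancreatic acinar markers Cela1 was called lower with açai than on low fat. That call was lost in 9 of 36 fits that left out 1 array (limma, adjusted p of 0.0511 to 0.118), where the difference ran from -1.17 to -0.76 over the 36. The part of the zones and of these cells in the Cyp1a2 differences was not tested.

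Cyp1a1, the enzyme that oxidizes polycyclic aromatic hydrocarbons and the classical AhR target, was detected in no liver of any diet. Its lowest detection p was 0.161, in a lingonberry liver, and 0.169 in a high-fat liver. Levels ran from 4.22 to 4.46 with lingonberry, from 4.16 to 4.29 with blackcurrant, from 4.21 to 4.34 with bilberry and from 4.20 to 4.37 with açai, against 4.20 to 4.46 on high fat and 4.23 to 4.37 on low fat. The ranges overlapped among all diets. Since both sides were below detection, no fold change is given, and whether this probe reports an induced transcript cannot be seen in these arrays.

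Cyp1b1, a P450 that acts on estrogens and aromatic hydrocarbons, was detected in 4 livers with lingonberry, 6 with blackcurrant, 1 with bilberry, 6 with açai, 5 on high fat and 6 on low fat. With bilberry its level ran from 4.42 through a median of 4.53 to 5.06, where replicate 3 was the only detected liver. With açai it ran from 4.82 through 4.91 to 5.13. On high fat it ran from 4.55 through 4.82 to 5.09, and on low fat from 4.69 through 4.93 to 4.96. Mean levels in order were 4.94 with açai, 4.89 on low fat, 4.84 on high fat, 4.83 with lingonberry, 4.82 with blackcurrant and 4.61 with bilberry. Bilberry minus high fat was -0.23 ± 0.11 (limma, adjusted p = 0.571, unadjusted p = 0.0330 in the model), and bilberry minus low fat was -0.28 ± 0.11 (adjusted p = 0.227, with 1.61% of all probes called). Açai minus bilberry was 0.33 ± 0.11 with the same sign on 6 of 6 chips and adjusted p = 0.161. Without bilberry replicate 3 the gene was detected in 0 of 5 bilberry livers, which leaves only a bound, at least 1.19-fold higher with açai. The limma fit of the normalized levels gave adjusted p = 0.0251 there, and the bound itself was not tested. The other 13 Cyp1b1 differences lay between -0.067 and 0.23, and none was called.

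Cyp1b1 is made by stellate cells, fibroblasts and endothelial cells, so the levels of their markers are given beside it. The mean level of 8 of 10 stellate cell and fibroblast markers had a median of 6.66 with bilberry and 6.71 with açai, against 6.64 on high fat and 6.81 on low fat. The mean of 9 of 9 endothelial markers had a median of 6.67 with bilberry and 6.78 with açai, against 6.69 on high fat and 6.77 on low fat. No marker of either list was called between bilberry and high fat. The part of these cells in the Cyp1b1 levels was not tested.

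**Figure D3:**
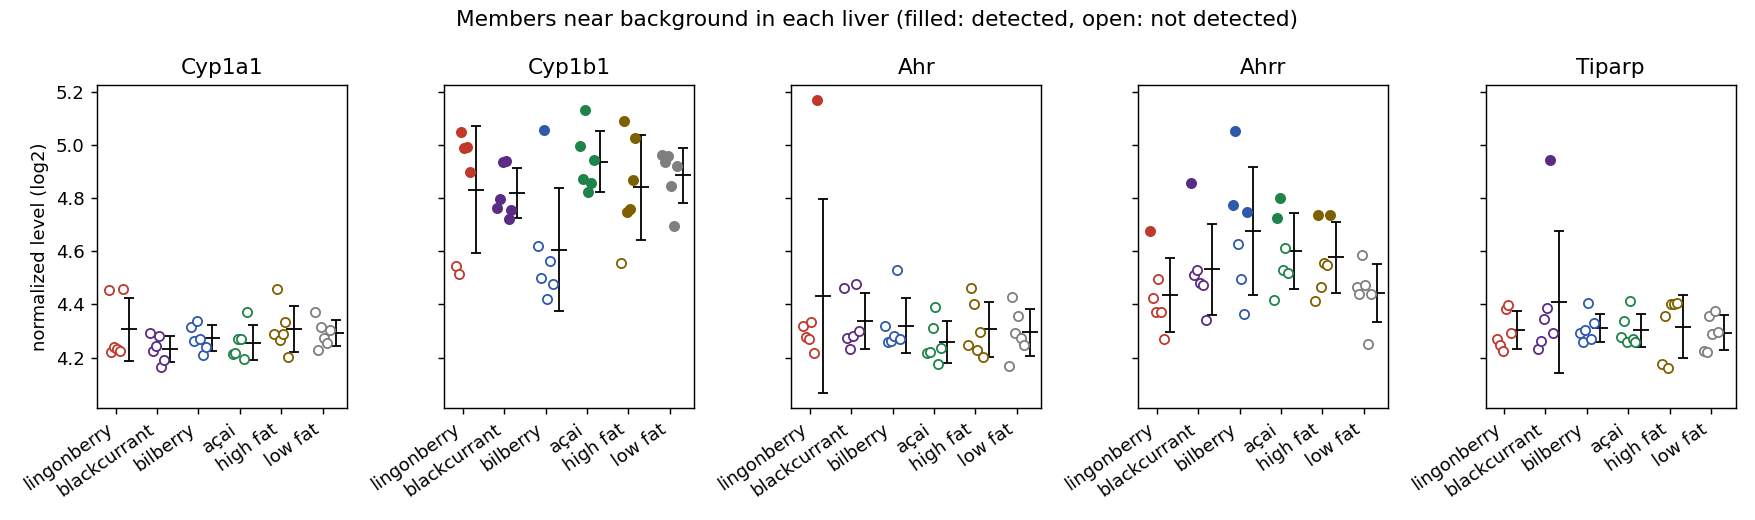
Normalized log2 level of Cyp1a1, Cyp1b1, Ahr, Ahrr and Tiparp in each liver by diet (filled points, detected; open points, not detected; bars, mean and SD of 6 mice). Cyp1a1 is open in every liver, and only 1 of the 6 bilberry livers is filled for Cyp1b1.

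Ahr, the receptor itself, was detected in 1 liver, lingonberry replicate 6, at a level of 5.17. Its other 5 lingonberry livers lay between 4.22 and 4.33, and all livers of the other diets between 4.17 and 4.53. Tiparp, an enzyme that adds ADP-ribose to the receptor and damps it, was likewise detected in 1 liver, blackcurrant replicate 5, at 4.94. The other 35 livers lay between 4.16 and 4.41. Neither gene was tested, and their single detected livers were from different diets. In lingonberry replicate 6 Cyp1a2 stood at 9.94 and 10.35, the lowest and the second lowest of the lingonberry livers.

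Ahrr, the repressor that competes with the receptor for ARNT, was detected in 9 livers. These were 1 of 6 with lingonberry, 1 with blackcurrant, 3 with bilberry, 2 with açai, 2 on high fat and 0 on low fat. With bilberry its level ran from 4.36 through a median of 4.69 to 5.05, against 4.41 through 4.55 to 4.74 on high fat and 4.25 through 4.45 to 4.59 on low fat. Bilberry minus high fat was 0.10 ± 0.10 (limma, adjusted p = 0.921). Bilberry was above low fat on 6 of 6 chips, but since no low-fat liver had a detected level only a bound can be given, at least 1.01-fold (adjusted p = 0.315). None of the other Ahrr differences was called.

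The variance of the tested members over the livers was split by diet and chip. Diet took 35.8% and 37.2% of the variance of the 2 Cyp1a2 probes over the 36 livers, 29.7% of that of Cyp1b1 and 25.4% of that of Ahrr. Chip took 11.5%, 18.9%, 16.3% and 16.4% in the same order. Some variance falls between diets without any effect, so the shares alone do not show one. In the limma test for any diet the adjusted p-values were 0.0763, 0.0599, 0.276 and 0.411. Of the pairs of members detected on at least 18 arrays there was 1, Cyp1a2 with Cyp1b1, and their levels were inversely related (Pearson r = -0.38, permutation p = 0.0227; Spearman rho = -0.37, permutation p = 0.0265; n = 36). With the 2 arrays farthest from the median of Cyp1a2 left out r was -0.45. After the means of each diet and each chip were removed r was -0.18 with permutation p = 0.294. Whether this r differs from -0.38 was not tested, so a relation within diets and chips is neither shown nor excluded.

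Among 10003 other genes tested, those whose level most resembled the second Cyp1a2 probe over the 36 arrays were Npr2, a receptor for natriuretic peptide, with r = 0.74, the cadherin family member Cdhr5 and the threonine-breakdown enzyme Gcat with r = 0.73 each, the protease inhibitor Mug1 with 0.72 and the plasmin inhibitor Serpinf2 with 0.71. After removal of the diet means Mug1 led with r = 0.75, followed by the glucuronosyltransferase Ugt2b1 and the complement gene C2 with 0.73 each. The genes most like Cyp1b1 were Tcim (0.70), Cytip (0.68), Ppic (0.68), Gadd45g (0.65) and St3gal5 (0.62). With diet means removed Ppic (0.73), Tcim (0.69), Ptp4a1 (0.67), Gadd45g (0.65) and Washc3 (0.65) were the most alike. These are descriptions of 36 arrays that share chips, chosen as the highest of many values.

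The partners of the receptor were measured to see whether the pathway itself was set differently by the diets. Of 15 genes listed, 9 were tested, among them the dimer partner Arnt, the chaperone Hsp90aa1, the co-chaperone Ptges3 and the coactivators Ncoa2, Ncoa3 and Ep300. By limma 0 of 9 were called in any comparison of a berry diet with high fat or of high fat with low fat. At an unadjusted p below 0.05, in either direction, the counts were 1 of 9 with lingonberry, 1 with blackcurrant, 2 with bilberry, 1 with açai and 1 for high fat against low fat, beside 14.1%, 8.67%, 7.83%, 6.06% and 15.4% of all probes. Arnt ran from 6.34 to 7.50 in the berry livers and from 6.77 to 7.34 on high fat, with means of 6.99, 7.11, 7.08 and 6.98 with lingonberry, blackcurrant, bilberry and açai, and 7.03 on high fat. Median differences of the 9 genes from high fat were -0.11 with lingonberry, -0.046 with blackcurrant, -0.0028 with bilberry and -0.050 with açai, against medians between -0.0091 and 0.0065 over all probes.

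Genes other than the members that are known to rise with AhR agonists numbered 25, of which 16 were tested. Against high fat, 1 of 16 was higher with lingonberry and none with blackcurrant, bilberry or açai, and none was lower. At an unadjusted p below 0.05 the counts were 6 of 16 with lingonberry, 5 with blackcurrant, 0 with bilberry and 2 with açai, beside 14.1%, 8.67%, 7.83% and 6.06% of all probes. These counts join differences in either direction, so they are not counts of genes that were higher. The gene called with lingonberry was Notum, which encodes a secreted enzyme that switches off Wnt proteins, at 7.96 through a median of 8.11 to 8.41 with lingonberry and 7.52 through 7.57 to 7.76 on high fat. No lingonberry liver overlapped the high-fat livers, and the difference was 0.52 ± 0.14 (adjusted p = 0.0388). The call was lost in 8 of 36 fits that left out 1 array, namely lingonberry replicate 1, 2, 4 or 5 or high-fat replicate 2, 3, 4 or 5 (adjusted p of 0.0606 to 0.116). It was also lost in 5 of 6 fits that left out 1 chip (adjusted p of 0.0772 to 0.189). The median difference of the 16 genes from high fat was 0.15 with lingonberry, -0.091 with blackcurrant, 0.086 with bilberry and 0.12 with açai. With genes undetected in 1 of the diets at their bounds these medians were 0.079, -0.074, 0.027 and 0.073.

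**Figure D4:**
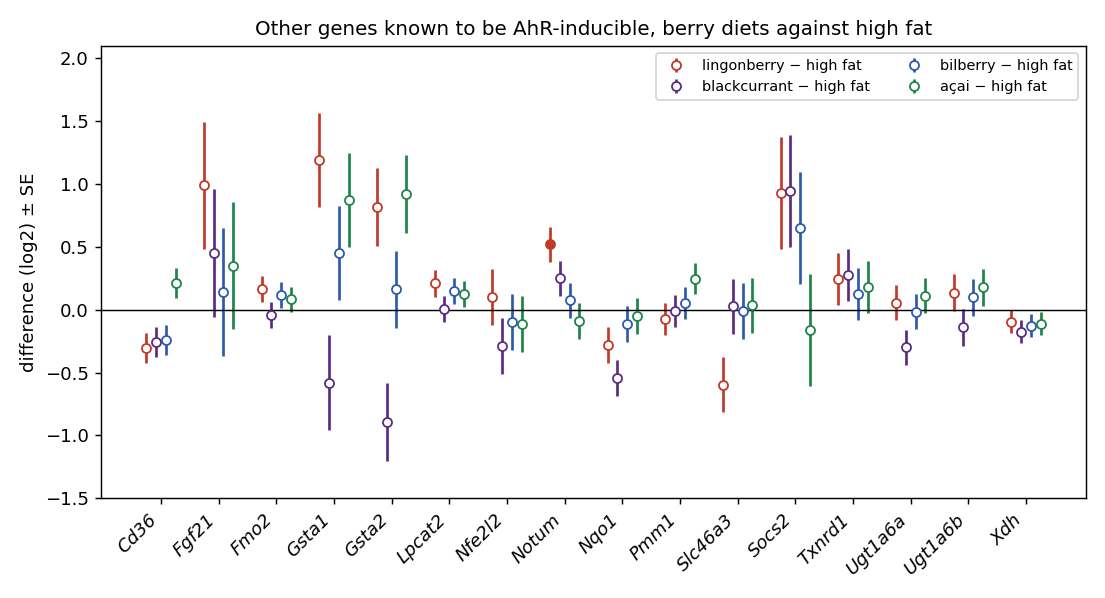
Log2 difference from high fat, with SE, of the 16 tested genes other than the members that are known to be inducible through the AhR, for 4 berry diets (n = 6 mice per diet; filled, adjusted p below 0.05). Notum with lingonberry is the only filled point, at 0.52; Cd36 was detected in no lingonberry liver.

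Within that list the detoxifying genes Nqo1 and Gsta2, which also answer to the factor NRF2, differed by fat content. Gsta2, a glutathione transferase, ran from 6.85 through 8.10 to 8.75 on high fat and from 6.36 to 7.92 on low fat. The difference was 1.27 ± 0.31 (limma, adjusted p = 0.0143), and its call was lost without high-fat replicate 2 or 5 (adjusted p = 0.0537 and 0.0546) and when all probes were tested (0.0532). Leaving out 1 chip ended it in 2 of 6 fits (adjusted p = 0.05025 and 0.129). Nqo1, a quinone reductase, was detected in 6 high-fat livers and 1 low-fat liver and differed by 0.55 ± 0.14 (adjusted p = 0.0247). Its call was lost without high-fat replicate 3, 5 or 6 or low-fat replicate 3 (adjusted p of 0.0559 to 0.0995), under median scaling (0.0823), when all probes were tested (0.0571) and in a fit of those diets alone (0.0858). Leaving out 1 chip ended the Nqo1 call in 3 of 6 fits (adjusted p of 0.0818 to 0.125). Between açai and low fat, which differ in fat content too and where 6.47% of all probes were called, 5 of 16 were higher and none lower. They were Gsta2 (2.19 ± 0.31), Gsta1 (2.12 ± 0.38), Nqo1 (0.50 ± 0.14), the fatty acid transporter Cd36 (0.44 ± 0.12) and the phosphomannomutase Pmm1 (0.42 ± 0.13), of which Gsta1, Cd36 and Pmm1 were picked for mention after their values were seen. Cd36, like Nqo1, was detected in 1 low-fat liver, so the sizes of both differences rest largely on low-fat values below detection. The calls of Nqo1, Cd36 and Pmm1 were lost in 4, 3 and 7 of 36 fits that left out 1 array: for Nqo1 açai replicate 3 or 4 or low-fat replicate 1 or 3, for Cd36 açai replicate 6 or low-fat replicate 2 or 4, and for Pmm1 açai replicate 1, 3 or 5 or low-fat replicate 2, 4, 5 or 6 (adjusted p of 0.0501 to 0.0916). In the same comparison both Cyp1a2 probes were lower. Between açai and lingonberry Notum was lower (-0.61, adjusted p = 0.00823) and Cd36 at least 1.15-fold higher, as it was detected in 5 açai livers and 0 lingonberry livers (adjusted p = 0.00725).

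The enzymes that turn tryptophan into kynurenine and other compounds, some of them AhR ligands, formed a list of 13 genes, 12 of them tested. Against high fat 1 of 12 was higher with lingonberry, none was called with the other berries and none was lower. At an unadjusted p below 0.05, in either direction, the counts were 3 of 12 with lingonberry, 1 with blackcurrant, 3 with bilberry and 0 with açai, beside the same shares of all probes. Kyat1, which makes kynurenic acid from kynurenine, ran from 10.47 through 10.63 to 10.89 with lingonberry and from 9.90 through 10.16 to 10.29 on high fat, without overlap. It differed by 0.53 ± 0.13 (limma, adjusted p = 0.0218), a call lost without lingonberry replicate 1 or 6 or high-fat replicate 2 (adjusted p of 0.0553 to 0.0718). The Kyat1 call was also lost in 3 of 6 fits that left out 1 chip (adjusted p of 0.09415 to 0.127). Between high fat and low fat, where 3.31% of all probes were called, 1 of 12 was lower. It was Qprt, an enzyme on the way to NAD, which differed by -0.30 ± 0.08 (adjusted p = 0.0277). Without high-fat replicate 2, 4 or 6 or low-fat replicate 2, 3 or 4 that call was lost (adjusted p of 0.0504 to 0.102). It was also lost in 4 of 6 fits that left out 1 chip (adjusted p of 0.0813 to 0.1935). Scaling arrays to 1 median (adjusted p = 0.465) or fitting those diets alone (0.191) ended it too. Against low fat, which differs from the berry diets in fat content too, 3.28% of all probes were called with lingonberry, 2.31% with blackcurrant, 1.61% with bilberry and 6.47% with açai. Of the 12 genes 3 were lower with lingonberry, 2 with blackcurrant, 0 with bilberry and 3 with açai, and none was higher. They were Kynu and Qprt with all 3 of these berries, Haao with lingonberry and Acmsd with açai, chosen for mention after their values were seen. With açai Kynu, which splits kynurenine, differed by -0.34 ± 0.09 (adjusted p = 0.0142) and Qprt by -0.29 ± 0.08 (adjusted p = 0.0189), and the call of Qprt was lost without low-fat replicate 4 (0.0742). Acmsd was at least 1.07-fold lower with açai, where no liver had a detected level (adjusted p = 0.0230, and 0.0964 without low-fat replicate 1). With lingonberry the call of Kynu was lost without lingonberry replicate 6 (0.0549) and that of Qprt without lingonberry replicate 1 or 6 or low-fat replicate 2, 3 or 4 (0.0553 to 0.0986). With blackcurrant that of Qprt was lost without blackcurrant replicate 4 or low-fat replicate 2, 3 or 4 (adjusted p of 0.0581 or more). The median differences of the 12 from high fat were 0.026, -0.11, 0.075 and -0.020 with lingonberry, blackcurrant, bilberry and açai.

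The P450 genes and receptors of the parallel CAR and PXR systems, which also answer to foreign compounds, were set beside Cyp1a2. Of 10 listed genes 9 were tested. Between high fat and low fat, where 3.31% of all probes were called, 3 of 9 were higher and none lower. Cyp2b9 was detected in 6 high-fat livers and 0 low-fat livers, a difference of at least 10.5-fold (limma, adjusted p = 6.40e-07). Cyp2b10, detected in 5 and 0, was at least 4.81-fold higher (adjusted p = 0.0181), a call lost without high-fat replicate 5 or 6 (0.0562 to 0.0662), with no background correction (0.0604) and when all probes were tested (0.0670). That call was also lost in 4 of 6 fits that left out 1 chip (adjusted p of 0.0619 to 0.110). Nr1i3, which encodes CAR itself, was higher by 1.17 ± 0.18 (adjusted p = 8.74e-05). Between lingonberry and high fat 3 of the 9 were called, beside 2.25% of all probes. Cyp3a11 was higher by 2.07 ± 0.22 (limma, adjusted p = 2.22e-07) and Cyp2c55 by 0.68 ± 0.16 (adjusted p = 0.0159), while Cyp2b9 was lower by 2.98 ± 0.43 (adjusted p = 8.51e-05). The call of Cyp2c55 was lost without high-fat replicate 3 (adjusted p = 0.0565). It was also lost in 4 of 6 fits that left out 1 chip (adjusted p of 0.0556 to 0.0820). In the same comparison Cyp1a2 was higher by 0.35 and 0.40 and was not called. Cyp2b9 was also the only gene of the list called with blackcurrant and with bilberry, at -3.03 and -2.94, whereas with açai none of the 9 was called. In a fit of the blackcurrant and high-fat livers alone the first of these had adjusted p = 0.209. Cyp2b9 was detected in 3 lingonberry, 3 blackcurrant and 4 bilberry livers. The sizes of its differences between these diets and high fat or açai thus rest partly on values below detection. All 4 berry comparisons share the same 6 high-fat livers. Between açai and lingonberry, which share none, Cyp3a11 was lower by 2.18 ± 0.22 (adjusted p = 3.46e-08) and Cyp2b9 higher by 2.97 ± 0.43 (adjusted p = 3.77e-05), beside the Cyp1a2 differences of -0.69 and -0.79.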

How the data were processed

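The authors deposited a table of raw probe intensity with a detection p-value for each of 36 arrays, and a processed log2 table. Per the labels' protocols, total RNA was extracted with the AllPrep kit, amplified with Illumina TotalPrep-96 and labelled with biotin. The sources used here do not give the method behind the detection p-values. The intensities were background-corrected and quantile-normalized with neqc of limma 3.58.1 (R 4.3.3, offset 16). The deposited log2 table differed from the result by at most 0.0501. Entries without a detection p-value (974) were left out. Of 45281 probes, 34885 had 1 gene symbol, 18 several and 10378 none in the annotation. Probes with detection p below 0.05 on at least 6 arrays were fitted with lmFit and eBayes on all 36 arrays, with 1 mean per diet, and called at a Benjamini-Hochberg adjusted p below 0.05. The fits were tested on simulated data. Intervals are at 95%, and exact permutation tests were two-sided. Where a fold is given as a bound, the adjusted p beside it is that of the limma fit of the normalized levels. The bounds themselves were not tested. The p-values treat mice as separate samples.

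Named were all members, the list genes called in a comparison of a berry diet with high fat or of high fat with low fat (up to 4 a list and comparison, by p), marker genes moving beside a result, and the 5 genes most correlated with Cyp1a2 and with Cyp1b1. The members and lists were chosen with earlier results of these data known. Replicate numbers mark a shared chip in the labels, so chip was tried as a block. Arrays of 1 chip correlated in their deviations from the diet means with a median r of 0.11 over 90 pairs (-0.12 to 0.44), against -0.029 over 450 pairs from different chips. Leaving out the arrays with pancreatic transcripts (marker mean above 6.5) was chosen after seeing the data.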

Additional observations from a re-analysis of the deposited data

Results flagged for a closer look

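A liver far from the others of its diet was found in 7 of 42 sets of 6 livers (7 probes in 6 diets) by Dixon's test. Chance alone flags about 5% of sets when values are normal and sets independent. The 2 Cyp1a2 probes are not independent (r = 0.87), and most flags were of probes near the detection limit. The 7 sets are therefore not read as an excess. For Cyp1a2, the second probe of bilberry replicate 3 was low at 9.63, with the next liver at 10.32, and that of high-fat replicate 1 was high at 10.91, with the next at 10.21. Bilberry replicate 3 was also the highest bilberry liver for Cyp1b1, at 5.06 against 4.62 for the next, and the only one in which that gene was detected. Lingonberry replicate 6 stood at 5.17 for Ahr against 4.33 for the next, and bilberry replicate 5 at 4.53 against 4.32, without being detected. Blackcurrant replicate 1 stood at 4.86 for Ahrr against 4.53 for the next. Blackcurrant replicate 5 stood at 4.94 for Tiparp against 4.39 for the next.

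The effects of 2 berries on Cyp1a2, each relative to the same high-fat livers, differed when tested against each other. The açai effect minus the lingonberry effect was -0.69 with the first probe and -0.79 with the second (limma, adjusted p = 0.0311 and 0.0143). The high-fat mean cancels here, so this is the açai against lingonberry comparison given above and not a further test. Neither effect against high fat was called (limma, adjusted p = 0.406 and 0.350 with lingonberry, 0.924 and 0.835 with açai).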

How the results depend on the processing

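Over the alternatives, 889 of 934 counts of called members matched the main count and 45 moved. The main count was 0 in most comparisons, where a match shows only that no call appeared. Both Cyp1a2 probes were called for açai against low fat. That count was 0 when arrays were scaled to 1 median (-0.50 and -0.52, adjusted p = 0.236 and 0.199), when all probes were tested (0.106 and 0.110) and with the pancreatic marker mean as a covariate (0.0567 and 0.0601), and 1 with trended robust variances (0.0501 for the second probe). For açai against lingonberry the main count of 2 was 1 when all probes were tested (0.0869 for the first probe) and 0 without the arrays with pancreatic transcripts. Counts with a main value of 0 were 1 for açai against blackcurrant with chip as a replicate block and in a fit of those diets alone, 1 for açai against bilberry with array weights, and for any diet 1 under median scaling, 1 with the replicate block and 2 with array weights. The causes were not tested. Leaving out 1 array or chip gave counts of 0 to 2 for açai against low fat, against lingonberry and for any diet, and of 0 to 1 for açai against blackcurrant and bilberry. For açai against low fat the count moved in 5 of 6 fits without 1 chip and in 10 of 36 without 1 array. For açai against lingonberry it moved in 4 of 6 and in 6 of 36. The mean of 4 berries minus high fat for the first Cyp1a2 probe ran from -0.0025 without replicate 5 to 0.27 without high-fat replicate 1. The block changed no other member call.

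Median scaling moved the median of all tested probes by 0.144 for lingonberry minus high fat and by -0.105 for açai minus lingonberry, and the share of calls that were higher to 86.3% for açai against low fat (58.6% in the main fit) and 18% for açai against lingonberry (59.6%). The block raised the number of all probes called to 717 for lingonberry against high fat (403 without it), 1049 for high fat against low fat (593), 1820 for açai against low fat (1158), 940 for açai against lingonberry (599) and 2350 for any diet (1438). Notum lost its call when all probes were tested (0.0874) and with the pancreatic covariate (0.0590), and Cyp2b9 with blackcurrant in a fit of only those diets (0.209). For high fat against low fat, Gsta2, Nqo1 and Cyp2b10 lost theirs when all probes were tested, Nqo1 and Qprt under median scaling and in a fit of those diets alone, and Cyp2b10 with no background correction. Cyp1a1, Ahr and Tiparp lay below detection, so changes beneath that level could not be measured.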
